A study of Homo sapiens with 33 samples.

Results

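The comparison described here was between H9 human embryonic stem cells (ESCs) in which EZH2 had been lost and supplied again from a transgene (EZH2-/-+EZH2, labelled Null+EZH2) and the parental H9 line (EZH2+/+, labelled WT). It shows where the transcriptome of the restored cells differed from the one they were meant to return to. It used 6 samples, 3 RNA-seq libraries of each line, out of 12 RNA-seq libraries and 33 samples in the series. All cells were grown on irradiated CF1 mouse feeder cells and flow-sorted for SSEA4, a cell-surface marker of undifferentiated human ESCs. WT cells carried no edit. The other libraries came from EZH2-/+ cells (Het, a clonal CRISPR/Cas9-edited line with 1 disrupted allele) and EZH2-/- cells (Null, without doxycycline). Null+EZH2 cells were derived from the EZH2-/+ line: they received a doxycycline-inducible EZH2-ires-mCherry transgene in a piggyBac vector together with rtTA-Puro, were selected with puromycin and had the remaining allele disrupted in the presence of doxycycline. The resulting Null lines were kept without doxycycline, which was then given to Null cells to supply EZH2 again. For how long it was given is not stated in the sources used here. Null+EZH2 cells therefore differed from WT cells in editing, cloning, vector, puromycin, doxycycline and time in culture as well as in the source of EZH2, and these cannot be told apart. The study calls the libraries of a line biological replicates but does not say whether they are separate cultures, so p-values measure the spread between these libraries.

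EZH2 is the main catalytic subunit of Polycomb Repressive Complex 2 (PRC2), which places methyl groups on lysine 27 of histone H3. Its product, H3K27me3, covers the start sites of silent developmental genes in ESCs, together with H3K4me3 at many of them. Doxycycline controls the level of the transgene but not its chromosomal site or its regulation.

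Levels are given as RPM, the reads of a gene divided by the size of the library. Changes are differences of log2(RPM + 0.1), Null+EZH2 minus WT, and understate what happened at genes of low level. The 3 WT libraries had 25521205 to 30685614 reads on genes and the 3 Null+EZH2 libraries 16587860 to 25346801. A count of 3 reads was worth 0.0656 to 0.0761 RPM in WT and 0.0771 to 0.120 RPM in Null+EZH2 libraries. Of the 35805 genes listed, 14917 were autosomal with a mean of at least 1 RPM over the 12 libraries, and these are the genes counted. A gene that was high in only 1 line could pass this filter through that line. A gene was called at an adjusted p under 0.05 (limma with Benjamini-Hochberg adjustment over the 20608 genes fitted).

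Null+EZH2 cells differed from WT cells at 1500 of 14917 genes (10.1%). Of these, 392 genes (2.63%) were higher and 1108 (7.43%) were lower. A change of at least 2-fold was seen at 253 of the higher and 579 of the lower genes, and one of at least 8-fold at 15 and 54. For 4847 genes (32.5%) the 3 libraries of one line did not overlap the 3 of the other, and 1497 of the called genes were among them. Against the same WT libraries, 4756 genes (31.9%) were called in Null and 171 (1.15%) in Het cells, where 31 (0.208%) were higher and 140 (0.939%) lower. The difference between these counts was not tested.

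The balance between higher and lower genes depended on the scaling. The median change over all genes was -0.14, and it was 0.00087 after median-ratio scaling, where 647 genes (4.34%) were higher and 639 (4.28%) lower: the share of calls that were lower went from 73.9% to 49.7%. With the library number as a block, 808 genes (5.42%) were higher and 2736 (18.3%) lower. With the scaling and the block together 1574 (10.6%) and 1457 (9.77%) were called, and limma-voom on the recovered reads called 565 (3.79%) and 555 (3.72%). All 392 higher genes and 639 of the lower genes were called in the main, the scaled and the blocked fit. Single libraries mattered too. Without WT library 1 the fit called 187 higher and 431 lower genes, without WT library 2 it called 214 and 505, without Null+EZH2 library 1 it called 194 and 613, and without Null+EZH2 library 2 it called 184 and 441. Changes of gene lists are given relative to the median of all genes. Counts of called list members are to be read beside the shares over all genes, 2.63% higher and 7.43% lower. The difference from these shares was not tested.

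**Figure D1:**
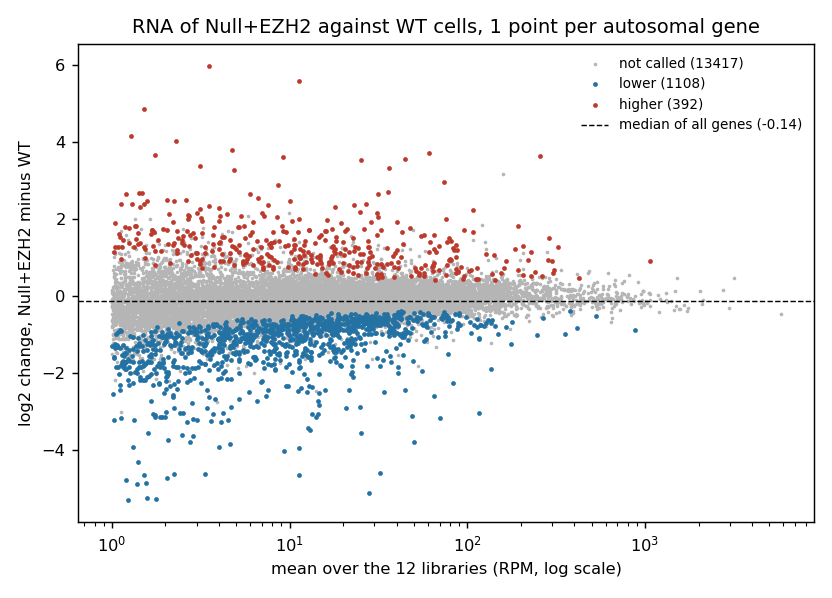
Log2 change of RNA (Null+EZH2 minus WT, vertical axis) against the mean level over the 12 libraries (RPM, log scale), with 1 point per autosomal gene of at least 1 RPM. Of 14917 genes, 392 were called higher (red) and 1108 lower (blue), and the dashed line is the median of all genes.

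The cells kept the markers of human ESCs. Of 12 such markers, every one was above 15.7 RPM in each of the 12 libraries, and NANOG had the lowest value. SOX2, LIN28A, SALL4, DNMT3B and L1TD1 were not called. SOX2, which is also a gene of neural progenitors, was at 219, 203 and 249 RPM in WT and 159, 140 and 182 RPM in Null+EZH2 libraries (change -0.48, adjusted p = 0.16). Markers of other cells were summed per library. The 26 neuroectoderm genes summed to 288 to 400 RPM in WT and 219 to 337 RPM in Null+EZH2 libraries. The 18 endoderm genes summed to 66.2 to 105 RPM in WT and 78.5 to 128 RPM in Null+EZH2 libraries, and the 25 mesoderm genes to 62.3 to 98.3 and 89.1 to 197 RPM. The 16 trophectoderm and amnion genes summed to 141 to 178 RPM in WT and 272 to 319 RPM in Null+EZH2 libraries, without overlap, while CGA and ELF5 had no read in any of the 6 libraries. KRT18, a keratin of simple epithelia, made up most of that sum, with a mean of 148 RPM in WT and 276 RPM in Null+EZH2 libraries, and KRT7 (change -0.62) and IGFBP3 (change -0.51) were not called. The 23 fibroblast and mesenchyme genes summed to 1529 to 1984 and 1630 to 1904 RPM, and FAP had no read in the 6 libraries. The part of other cells in the results was not tested.

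EZH2 RNA was higher than in the parental line. It was at 68.6, 63.3 and 59.5 RPM in the WT and 271, 385 and 256 RPM in the Null+EZH2 libraries (change 2.23 ± 0.17, standard error, adjusted p = 3.83e-05). All restored libraries lay above all WT libraries, and the counts do not separate the transgene from transcripts of the disrupted alleles. EZH1, the second methyltransferase of PRC2, was at 23.4, 33.1 and 25.9 RPM in WT and 13.9, 13.5 and 15.3 RPM in restored libraries (change -0.93, adjusted p = 0.0154). Its adjusted p rose to 0.052, 0.0632 and 0.0748 without Null+EZH2 library 1, Null+EZH2 library 2 and WT library 2. The scaffold gene EED was at 22.7, 22.2 and 23.3 RPM in WT and 16, 18.7 and 18.4 RPM in restored libraries. Its groups did not overlap, but the change of -0.36 had an adjusted p of 0.0969 (0.0311 with the replicate block, 0.372 after median-ratio scaling). SUZ12 (change -0.11, adjusted p = 0.795) and RBBP4 (change -0.13, adjusted p = 0.497) were not called. PRC1 is the complex that ubiquitinates histone H2A. Among its 20 genes, 3 were lower and 1 was higher (7.43% and 2.63% over all genes): CBX2 (change -0.87), CBX8 (-1.18), PHC2 (-1.0) and PHC1 (0.58). These calls were lost without 1 or more libraries, with adjusted p up to 0.129, 0.146, 0.131 and 0.19 (for CBX2 without WT library 1, CBX8 and PHC1 without WT library 2, PHC2 without Null+EZH2 library 2), and CBX8 and PHC2 also after scaling. Of 21 tested genes of a list of histone-modifying enzymes and their partners, which act on H3K4, H3K27 and other lysines, 0 were called by limma in either direction (0 higher and 2 lower with the block).

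Genes of early neural development were lower. Of 26 neuroectoderm genes, 9 reached the mean of 1 RPM needed to be tested, and 7 were lower and 0 higher. Their median was -1.34 relative to all genes (-0.88 without WT library 1). Genes such as SOX1, low in the other lines, passed this filter through their WT level, which favours lower genes among those tested. The summed RPM of all 26 genes overlapped between WT and Null+EZH2 libraries. After median-ratio scaling 5 were lower. In these bulk libraries, fewer cells of a type and less RNA per cell cannot be told apart. Per library, the list's median relative to the WT mean lay between -0.44 and 0.43 in WT and between -1.52 and -1.04 in Null+EZH2 libraries. SOX1, a transcription factor of the earliest neural plate that lies on chromosome 13 of GRCh38 from 112067647 to 112070488, was at 9.41, 9.33 and 3.5 RPM in WT and 0.206, 0.161 and 0.12 RPM in restored libraries (change -4.72 ± 0.49, adjusted p = 0.000228). POU3F2, a neural POU-domain factor, was at 6.62, 14.1 and 2.45 RPM and then at 0.309, 0.0804 and 0.12 RPM (change -4.62 ± 0.62, adjusted p = 0.000985). PAX6 (chromosome 11, 31784792 to 31817961), a master regulator of eye and forebrain, was at 8.48, 8.12 and 3.37 RPM and then at 0.386, 0.348 and 0.52 RPM (change -3.61 ± 0.50, adjusted p = 0.00116). None of these libraries overlapped, and each of the 3 calls held whichever library was left out. POU3F1 (-1.48), ZIC5 (-0.96) and NCAM1 (-0.93) were lower as well. LHX5 was at 10.5, 1.93 and 2.21 RPM in WT and 0.386, 0.107 and 0.839 RPM in restored libraries, and its call (change -3.01, adjusted p = 0.0497) was lost when any library but Null+EZH2 library 3 was left out, with adjusted p of 0.0677 to 0.189, and after scaling.

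Other genes, some of them neuronal, were lower too. NR2F1, NR2F2 and NTRK2 were named because they were among the 12 largest falls. That they were lower follows from this choice and is not separate evidence on neural genes. NR2F1, an orphan nuclear receptor of the developing cortex, was at 5.02, 9 and 1.27 RPM in WT and 0.154, 0.0536 and 0 RPM in restored libraries (change -4.66 ± 0.67, adjusted p = 0.0016). Its relative NR2F2 was at 5, 6.34 and 1.7 RPM and then at 0.129, 0 and 0 RPM (change -4.89 ± 0.54, adjusted p = 0.000309). Both overlap an antisense transcript, and the counting did not use strand. NTRK2, the receptor of the neurotrophin BDNF, was at 11.5, 18.2 and 4.54 RPM and then at 0.489, 0.188 and 0.28 RPM (change -4.64 ± 0.72, adjusted p = 0.00231). WT library 3 was the lowest WT library for SOX1, POU3F2, PAX6 and these 3 genes, and it still lay above all restored libraries. Of 25 tested genes of neuronal adhesion and synapse, 10 were lower and 0 higher, with a median of -0.94 relative to all genes (8 lower and 1 higher after scaling, 13 lower and 1 higher with the block). They included the axon guidance receptor ROBO2 (change -2.53, adjusted p = 0.00639), the calcium channel subunit CACNA1E (-2.26, adjusted p = 0.00542) and the presynaptic adhesion gene NRXN3 (-1.94, adjusted p = 0.0026). STMN2, a microtubule regulator of growing neurites, was at 25.2, 17.4 and 35.6 RPM in WT and 2.75, 3.19 and 12.4 RPM in restored libraries (change -2.36, adjusted p = 0.0379), and it was not called when any library but Null+EZH2 library 3 was left out (adjusted p of 0.0713 to 0.147) or after scaling.

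The plot of single libraries shows these genes in the other lines of the series as well. SOX1 had a mean of 7.41 RPM in WT, 0.606 in Het, 0.0162 in Null and 0.162 in Null+EZH2 libraries. PAX6 had 6.65, 1.75, 1.06 and 0.418 RPM and NTRK2 had 11.4, 0.448, 1.15 and 0.319 RPM. Not all of these genes passed the test in the other lines: PAX6 was not called in Het (change -1.91, adjusted p = 0.108), nor was ROBO2 (change -0.55, adjusted p = 0.809), and STMN2 was called in neither Het (adjusted p = 0.339) nor Null (adjusted p = 0.161). Each of these comparisons uses the same WT libraries. KHDRBS2, an RNA-binding protein of neurons, was an example of a partial return: it was at 3.26, 4.34 and 1.84 RPM in WT, had no read in the 3 Null libraries and was at 0.334, 0.375 and 1.36 RPM in restored libraries. It was lower than in WT (change -2.19, adjusted p = 0.0101), a call lost without Null+EZH2 library 2 (adjusted p = 0.0545) or WT library 2 (0.0526). CACNA1E had another order: its mean was 1.55 RPM in WT, 2.6 in Null and 0.261 in restored libraries. Null did not pass the test against WT (change 0.60, adjusted p = 0.29) and was above Null+EZH2 by 2.86 (adjusted p = 0.0037).

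**Figure D2:**
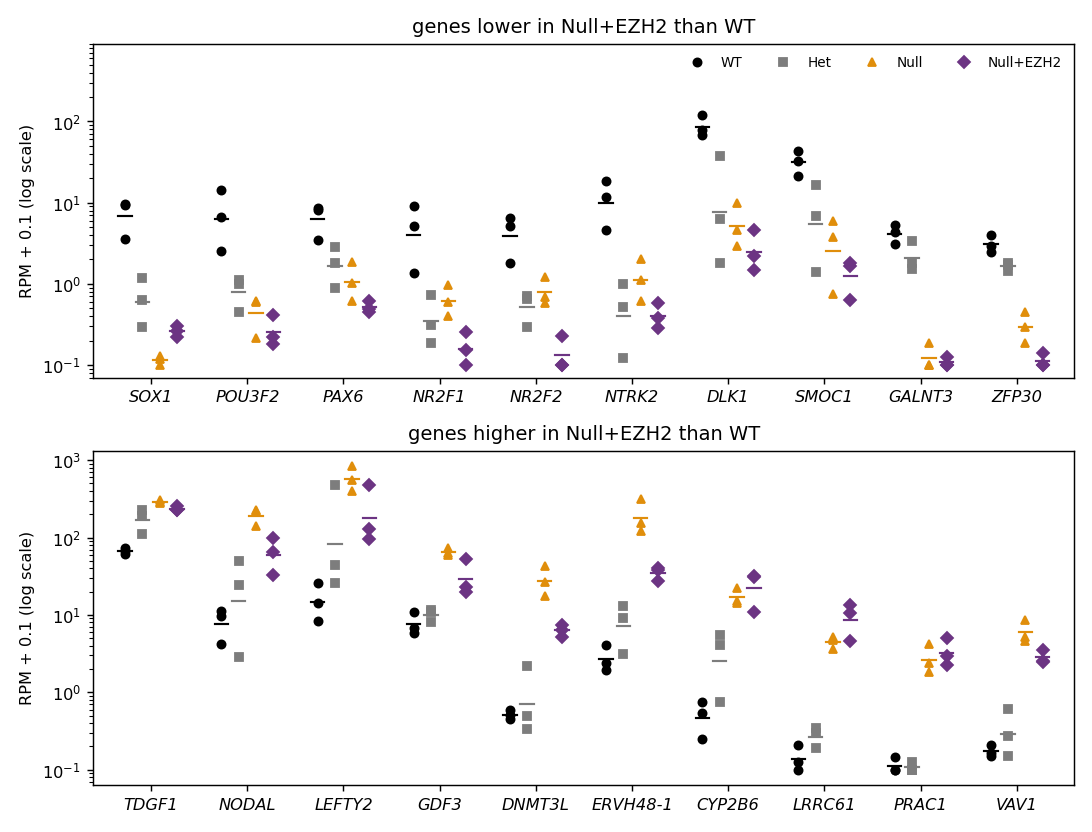
RNA levels (RPM + 0.1, log scale) of 20 genes in the 12 libraries, with 1 point per library and a bar at the geometric mean of each genotype. In the upper panel the Null+EZH2 libraries lie below the WT libraries at all 10 genes, and in the lower panel they lie above them at all 10.

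WNT signaling genes were lower as a list. WNT proteins bind Frizzled receptors and stabilize beta-catenin. Of 35 tested members, 13 were lower and 0 higher, with a median of -0.50 relative to all genes (-0.78 without WT library 3). With the block, 18 were lower and 3 higher, and after scaling 7 and 1. The calls covered 6 receptors. FZD1 was at 13.3, 11.7 and 8.61 RPM in WT and 2.44, 2.36 and 3.36 RPM in restored libraries (change -2.00 ± 0.25, adjusted p = 0.000765). FZD2 (-1.68), FZD10 (-1.39), FZD3 (-1.19), FZD7 (-1.0) and FZD9 (-0.95) were also lower. Secreted inhibitors were lower as well, namely FRZB (-1.53), SFRP1 (-1.01) and DKK3 (-0.61). NKD1, a feedback inhibitor and target of the pathway, was at 46.8, 38 and 22.2 RPM in WT and 12.8, 7.56 and 9.23 RPM in restored libraries (change -1.81 ± 0.32, adjusted p = 0.00477), and the target SP5 was lower by 1.06 on the log2 scale. Not called were AXIN2 (-0.56, adjusted p = 0.0866), LEF1 (-1.87, adjusted p = 0.0736), TCF7 (0.04) and CTNNB1 (-0.01). FZD5 (1.16, adjusted p = 0.0676), WNT3 (0.87) and TCF7L1 (0.49) lay above WT, also without a call. The ligand WNT4 was at 17.8, 1.45 and 4.5 RPM in WT and 0.437, 0.268 and 0.72 RPM in restored libraries (change -3.21, adjusted p = 0.0321), and the call was lost without Null+EZH2 library 1 (adjusted p = 0.0867), Null+EZH2 library 2 (0.124), WT library 1 (0.129) or WT library 3 (0.069). RSPO3, an R-spondin that enhances WNT signals, had a change of -2.92 (adjusted p = 0.0396), and it was not called after scaling or without Null+EZH2 library 1 (0.0781), Null+EZH2 library 2 (0.158), WT library 1 (0.105) or WT library 2 (0.159).

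Imprinted genes gave a few large falls among 32 tested members: 4 were lower and 0 higher (7.43% and 2.63% over all genes). The list's median was -0.08 relative to all genes, and 8 were lower and 2 higher with the block. DLK1 (chromosome 14, 100725705 to 100738224), an imprinted transmembrane inhibitor of differentiation, was at 119, 78.8 and 67.6 RPM in WT and 1.39, 2.09 and 4.52 RPM in restored libraries (change -5.12 ± 0.84, adjusted p = 0.00304). PLAGL1, an imprinted zinc finger factor, was at 11.7, 12 and 7.76 RPM and then at 1.67, 0.858 and 1.08 RPM (change -3.04 ± 0.38, adjusted p = 0.000753). PEG10, a retrotransposon-derived gene, was lower by 0.76 on the log2 scale (adjusted p = 0.00869). GNAS-AS1 (-1.01, adjusted p = 0.0336) overlaps GNAS and was not called after scaling or without WT library 1 (0.134), WT library 3 (0.0868), Null+EZH2 library 2 (0.0914) or Null+EZH2 library 3 (0.0953). SMOC1, a secreted calcium-binding protein and no member of these lists, was at 43.4, 32.9 and 21.5 RPM in WT and 1.57, 0.536 and 1.72 RPM in restored libraries (change -4.66 ± 0.85, adjusted p = 0.00552).

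Pluripotency genes lay on the other side. Of 30 genes of primed pluripotency, the state of conventional human ESCs, 13 were higher and 2 lower, with a median of 0.80 relative to all genes (0.69 to 0.93 over the fits that leave out 1 library). With the block 17 were higher and 4 lower, and after scaling 14 and 2. The list's median per library lay between -0.12 and 0.14 in WT and between 0.75 and 0.88 in Null+EZH2 libraries. POU5F1, which encodes the core pluripotency factor OCT4, was at 632, 617 and 792 RPM in WT and 1315, 1245 and 1237 RPM in restored libraries (change 0.90, adjusted p = 0.00412). NANOG was at 22.4, 24 and 20.3 RPM and then at 76.3, 69.9 and 51.3 RPM (change 1.55, adjusted p = 0.0222). The adhesion molecule EPCAM was at 44.8, 44.9 and 49.5 RPM and then at 83.3, 97.5 and 88.4 RPM (change 0.95, adjusted p = 0.00639). UTF1 (1.37), DPPA2 (1.58) and DPPA4 (0.67) were also higher. The lower members were PODXL, a surface sialomucin, at 1201, 1050 and 1386 RPM in WT and 658, 594 and 697 RPM in restored libraries (change -0.89, adjusted p = 0.00262), and ZIC2 (-1.05, adjusted p = 0.0128, and 0.0642 and 0.0588 without Null+EZH2 library 2 and WT library 1). Reads of POU5F1 may be shared with its near-identical copies. Without centring on all genes, the list's median change from WT was 0.66 in Null+EZH2, 0.73 in Null and 0.42 in Het cells. In Null cells POU5F1 changed by 0.92, NANOG by 1.985, EPCAM by 1.02, PODXL by -0.82 and ZIC2 by -1.52. The shift was thus not particular to restored cells.

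Naive pluripotency genes, which mark a state earlier than the primed one, had 2 of 11 tested members higher and 1 lower. TFCP2L1 was at 0.688, 0.938 and 0.918 RPM in WT and 2.44, 2.92 and 2.36 RPM in restored libraries (change 1.5 ± 0.26, adjusted p = 0.00412). DPPA3 was at 0.0888, 0 and 0.131 RPM and then at 0.669, 1.21 and 0.679 RPM (change 2.5 ± 0.45, adjusted p = 0.00501). The same gene had a mean of 8.93 RPM in Null libraries. DNMT3L, a cofactor of de novo DNA methylation, was at 0.488, 0.355 and 0.415 RPM in WT and 5.12, 7.34 and 6.36 RPM in restored libraries (change 3.61 ± 0.56, adjusted p = 0.00227), with a mean of 29 RPM in Null libraries.

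Several of the higher genes belong to Nodal signaling, in which the ligand NODAL acts through activin receptors with TDGF1 (also called CRIPTO) as a co-receptor and induces its own inhibitors of the LEFTY family. Over the 31 tested genes of TGF-beta, Nodal and BMP signaling, 7 were higher and 4 lower, with a median of -0.05 relative to all genes (7 and 1 after scaling, 9 and 9 with the block). TDGF1 was at 67.4, 60.6 and 73 RPM in WT and 253, 227 and 228 RPM in restored libraries (change 1.82 ± 0.21, adjusted p = 0.000429). It lies on chromosome 3 from 46574555 to 46626543 and overlaps LRRC2. GDF3, a Nodal-like ligand, was at 6.62, 10.9 and 5.79 RPM and then at 52.2, 22.9 and 19.7 RPM (change 1.93 ± 0.33, adjusted p = 0.00385). NODAL was at 11, 9.46 and 4.15 RPM in WT and 99.2, 64.5 and 33 RPM in restored libraries (change 2.96 ± 0.80, adjusted p = 0.033, and 0.0056 with the block). Its groups did not overlap, but the call was lost when any library but Null+EZH2 library 3 was left out, with adjusted p between 0.07 and 0.118. LEFTY2 was at 8.37, 25.9 and 14 RPM and then at 128, 478 and 96.5 RPM (change 3.63 ± 0.89, adjusted p = 0.0221, and 0.00083 with the block). Without Null+EZH2 library 2, WT library 1 or WT library 3 its adjusted p was 0.104, 0.0916 or 0.0557. Its reads cannot be told from those of the overlapping transcript RP4-559A3.6. BMP4 (1.69, adjusted p = 0.0072), SMAD7 (1.46) and the BMP target ID1 (1.02, lost without WT library 1 with adjusted p = 0.0651) were also higher. FST, which encodes the activin antagonist follistatin, was lower, at 292, 340 and 309 RPM in WT and 107, 48.4 and 113 RPM in restored libraries (change -1.90 ± 0.27, adjusted p = 0.00126), and so were ID2 (-1.44) and the receptors ACVR2A (-0.86) and TGFBR1 (-0.69). Null cells changed from WT in the same directions, by 2.12 at TDGF1, 3.10 at GDF3, 4.64 at NODAL, 5.29 at LEFTY2 and -2.23 at FST.

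The FGF and ERK list had 4 of 25 members higher and 2 lower (8 and 2 with the block). The receptor FGFR1 was at 636, 538 and 584 RPM in WT and 375, 294 and 322 RPM in restored libraries (change -0.83 ± 0.16, adjusted p = 0.00706). FGFR3 was lower (-0.86, lost without Null+EZH2 library 2, WT library 1 or WT library 2 with adjusted p of 0.0699, 0.0515 and 0.0643), while FGF2 (0.72) and the ERK phosphatase DUSP5 (1.2, lost without Null+EZH2 library 1, Null+EZH2 library 2 or WT library 1 with adjusted p of 0.0688, 0.0738 and 0.0756) were higher. ETV4, a transcriptional target of FGF signals, was at 30.7, 32 and 28.2 RPM in WT and 122, 94.4 and 54 RPM in restored libraries (change 1.49, adjusted p = 0.032), and the call was lost when any library but Null+EZH2 library 3 was left out (adjusted p of 0.0822 to 0.123).

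Some genes of apoptosis and stress were above WT. Of 25 p53 target and apoptosis genes, 5 were higher and 1 was lower (2.63% and 7.43% over all genes). PMAIP1, which encodes the pro-apoptotic protein NOXA, was at 14, 14.5 and 14 RPM in WT and 61, 68.3 and 37 RPM in restored libraries (change 1.91 ± 0.20, adjusted p = 0.000273). CASP8, the initiator caspase of death receptors, was at 1.73, 2.43 and 2.47 RPM and then at 8.97, 7.85 and 6.67 RPM (change 1.79 ± 0.22, adjusted p = 0.000691). PHLDA3 (1.10), AEN (0.92) and BAX (0.54) were also higher. The anti-apoptotic gene BCL2 was lower (-1.36, adjusted p = 0.0195), a call lost without Null+EZH2 library 2, WT library 1 or WT library 2 (0.0833, 0.0946 and 0.0676). CDKN1A, a well-known p53 target that encodes p21, had means of 5.2 and 9.82 RPM (change 0.88, adjusted p = 0.31). Of 30 genes of the ATF4 integrated stress response, 5 were higher and 0 lower, with a median of 0.43 relative to all genes. GDF15, a secreted stress cytokine, was at 0.555, 0.71 and 1.07 RPM in WT and 2.91, 4.18 and 3.84 RPM in restored libraries (change 2.12 ± 0.40, adjusted p = 0.00664). CHAC1 (1.47), TRIB3 (1.37), DDIT3 (1.21) and ASNS (0.60) were higher too, with CHAC1, TRIB3 and DDIT3 reaching adjusted p of 0.0924, 0.124 and 0.0563 without WT library 2, Null+EZH2 library 2 and WT library 2. CDKN2A, a cyclin-dependent kinase inhibitor locus kept silent by Polycomb, was at 0.444, 0.457 and 0.328 RPM in WT and 2.7, 1.79 and 1.72 RPM in restored libraries (change 2.07 ± 0.32, adjusted p = 0.00227), with a mean of 13 RPM in Null libraries. CDKN1B was lower (-0.80, adjusted p = 0.00947).

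Housekeeping programs of division gave no calls. Of 30 mitosis genes, limma called 0 in either direction (6 lower with the block and 0 after scaling), and the highest of them, TOP2A, was at 365, 435 and 249 RPM in WT and 234, 250 and 211 RPM in restored libraries (change -0.56, adjusted p = 0.0874, and 0.038 with the block). Of 30 DNA replication genes, limma called 0 (2 lower with the block). Of 24 heat shock and unfolded protein genes limma called 0 as well, but 7 were higher and 1 lower with the block and 7 higher after scaling. Of 75 mitochondrial ribosome genes 1 was higher, MRPS35 (0.47, adjusted p = 0.0206, lost without either of the WT libraries 1 and 2 or the Null+EZH2 libraries 1 and 2 with adjusted p of 0.056 to 0.0988), and with the block 8 were higher and 2 lower.

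Other lists gave few calls, beside 2.63% higher and 7.43% lower over all genes. The mesoderm list had 1 of 12 tested genes higher, the receptor PDGFRA, at 3.71, 4.57 and 2.05 RPM in WT and 13.1, 11.1 and 8.15 RPM in restored libraries (change 1.67, adjusted p = 0.0197, and 0.0528 to 0.0748 without Null+EZH2 library 1 or 2 or WT library 1 or 3). The endoderm list had 1 of 15 lower, KIT (-0.88), and the trophectoderm and amnion list 2 of 5 higher. Of these, GABRP, a GABA receptor subunit of amnion, was at 2.31, 3.9 and 3.45 RPM in WT and 8.36, 9.3 and 8.19 RPM in restored libraries (change 1.42 ± 0.29, adjusted p = 0.00876), while the keratin KRT18 (0.91) was lost whichever library was left out (adjusted p up to 0.171). Of 19 fibroblast and mesenchyme genes, S100A6 was higher and the collagen gene COL1A2 (-1.09), PDGFRB (-1.56) and FBN1 (-1.01) were lower, with adjusted p up to 0.0612, 0.0819 and 0.134 when Null+EZH2 library 2, WT library 1 and WT library 1 were left out. Of 27 interferon and MHC class I genes 2 were higher and 3 lower (2 and 0 after scaling). IFITM1, an interferon-induced membrane protein, was at 124, 204 and 176 RPM in WT and 423, 367 and 407 RPM in restored libraries (change 1.27 ± 0.22, adjusted p = 0.00416). It shares its position and sequence in part with IFITM2 (0.93, lost without Null+EZH2 library 1 or WT library 1 with adjusted p of 0.0552 and 0.0771), so that their reads may be mixed. The immediate early list had FOSL1 higher (1.90 ± 0.36, adjusted p = 0.00651) and EGR2, a hindbrain and immediate early factor, lower, at 5.62, 8.82 and 6.32 RPM in WT and 0.334, 1.31 and 0.839 RPM in restored libraries (change -3.05 ± 0.50, adjusted p = 0.0031). Single genes were also called among 7 PRC2 accessory genes (C17orf96, -1.21), 15 DNA methylation genes (DNMT3L), 9 germline genes (STK31, -0.94) and 23 cholesterol synthesis genes (TM7SF2, -0.61). Glycolysis and hypoxia had AK4 higher (1.01) and PFKM lower (-0.62). The calls of KIT, C17orf96, STK31, TM7SF2, AK4 and PFKM were lost without Null+EZH2 library 2 (adjusted p of 0.0709, 0.0979, 0.0947, 0.131, 0.136 and 0.134) and without WT library 1 (0.124, 0.09, 0.0808, 0.107, 0.138 and 0.0879), and some also without other libraries. The genes of the long arm of chromosome 20 that is often gained in cultured ESCs had 1 of 15 higher, ID1, and 1 lower, ASXL1 (-0.91).

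The genes that rose most were of mixed kinds. LRRC61 was at 0.111, 0.0254 and 0 RPM in WT and 13.4, 10.4 and 4.52 RPM in restored libraries (change 5.97 ± 0.42, adjusted p = 2.43e-05), and ZBED6CL, which overlaps it, was at 0.222, 0.0254 and 0.0437 RPM and then at 5.07, 3.3 and 1.76 RPM (change 4.15 ± 0.56, adjusted p = 0.00106). The reads of these overlapping genes may be shared. CYP2B6 (chromosome 19, 40991299 to 41018398), a cytochrome P450 of drug metabolism, was at 0.644, 0.152 and 0.437 RPM and then at 31.8, 30.8 and 10.8 RPM (change 5.57 ± 0.67, adjusted p = 0.00055). Other members of its family are similar in sequence, and how their reads were shared is not known. S100A6 (3.79), the endogenous retroviral gene ERVH48-1 (3.71), the signaling exchange factor VAV1 (4.02) and the non-coding RNAs CTD-2015G9.2 (3.66) and LINC01108 (3.54) followed. VAV1 was at 0.0666, 0.0507 and 0.109 RPM in WT and 2.44, 3.46 and 2.4 RPM in restored libraries. Null libraries had these genes too. ERVH48-1 had a mean of 197 RPM in Null and 35.4 RPM in restored libraries, which differed by 2.36 (adjusted p = 0.021), and CYP2B6 had 17.1 and 24.4 RPM, which were not called apart (adjusted p = 0.81).

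A handful of genes went from expressed to nearly unread or the reverse. The rule for these, chosen after the values were seen, was at most 3 reads in every library of one line and at least 1 RPM in every library of the other. The 4 genes off in restored cells were GALNT3, CHP2, ZFP30 and CLEC10A, and the 1 gene on was PRAC1. The start-site sequences of GALNT3, ZFP30 and PRAC1, and of NODAL, whose promoter H3K27me3 was lower, are shown because their promoters differed between the lines in ChIP-seq. They run from 250 bases before to 50 bases after the start site in RefSeq on GRCh38.p14, 5′ to 3′ on the gene's strand, and capitals mark CpG dinucleotides. The regions are chr2:165794198-165794497 (minus strand, GALNT3), chr19:37656212-37656511 (minus strand, ZFP30), chr10:70441632-70441931 (minus strand, NODAL) and chr17:48722469-48722768 (minus strand, PRAC1).
GALNT3: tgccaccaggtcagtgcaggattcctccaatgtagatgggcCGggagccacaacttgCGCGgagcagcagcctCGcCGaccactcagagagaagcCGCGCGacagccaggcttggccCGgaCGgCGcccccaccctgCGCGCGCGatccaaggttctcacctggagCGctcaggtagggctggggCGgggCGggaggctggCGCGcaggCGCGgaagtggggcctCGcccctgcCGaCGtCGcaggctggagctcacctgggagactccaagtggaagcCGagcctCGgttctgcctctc
ZFP30: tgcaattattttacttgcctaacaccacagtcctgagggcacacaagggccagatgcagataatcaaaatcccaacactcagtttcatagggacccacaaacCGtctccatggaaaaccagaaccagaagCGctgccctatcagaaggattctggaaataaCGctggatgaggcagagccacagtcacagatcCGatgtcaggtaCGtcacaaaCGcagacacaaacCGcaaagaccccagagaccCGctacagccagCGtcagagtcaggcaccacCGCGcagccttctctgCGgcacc
NODAL: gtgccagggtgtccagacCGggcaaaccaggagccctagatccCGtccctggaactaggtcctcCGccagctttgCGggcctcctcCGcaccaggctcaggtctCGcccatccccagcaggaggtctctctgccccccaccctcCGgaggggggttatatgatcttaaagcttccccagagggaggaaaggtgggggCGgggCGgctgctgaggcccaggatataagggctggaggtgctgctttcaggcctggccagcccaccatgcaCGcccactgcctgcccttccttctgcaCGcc
PRAC1: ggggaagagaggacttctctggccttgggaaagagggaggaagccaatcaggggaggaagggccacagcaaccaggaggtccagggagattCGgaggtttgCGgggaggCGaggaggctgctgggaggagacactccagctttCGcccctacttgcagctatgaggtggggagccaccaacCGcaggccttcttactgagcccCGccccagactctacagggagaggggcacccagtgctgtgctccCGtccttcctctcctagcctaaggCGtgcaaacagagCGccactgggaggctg
GALNT3 had 28 CpG dinucleotides and 70% G and C in these 300 bases, ZFP30 had 12 and 53%, NODAL 11 and 66%, and PRAC1 9 and 63%.

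GALNT3, which encodes an enzyme that starts mucin-type O-glycosylation, was at 2.98, 5.15 and 4.3 RPM in WT and 0.0257, 0 and 0 RPM in restored libraries, that is 534 reads against 1 read (ratio 415, 95% counting interval 74.2 to 16420). Its mean was 2.14 RPM in Het and 0.0293 RPM in Null libraries. ZFP30, a KRAB zinc finger gene, had 390 reads in WT and 1 read in restored libraries (ratio 303, 95% counting interval 54.1 to 12000). It overlaps 3 other listed genes. CHP2 had 399 reads and 1 read (ratio 310, 55.3 to 12280) and CLEC10A, a lectin of myeloid cells, 613 and 2 reads (ratio 238, 65.7 to 1971). Het libraries had CHP2 at 1.0, 2.05 and 6.17 RPM, and CLEC10A at 0.0823 RPM. PRAC1, a gene next to the HOXB cluster, had 2 reads in WT and 343 reads in restored libraries (ratio 221, 60.6 to 1829), at 4.91, 2.14 and 2.88 RPM, with means of 0.00816 RPM in Het and 2.72 RPM in Null libraries. The intervals cover counting error only.

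ChIP-seq of the same lines, for H3K27me3, H3K4me3 and the active marks H3K27ac and H3K4me1 beside their input, was then set against the RNA. The deposited values are RPM in windows of 5000 bases, reaching 2.5 kb to either side of a start site, in 1 column per line and mark. Each column is an average of libraries made by the authors, and since the single libraries were not used here, the changes carry no test between lines. The low values left unsure how many libraries were averaged and on which scale. The WT column of H3K4me3 had a higher background than the others. The interval given with a median is a 95% binomial one over genes, so it does not cover the spread between libraries. Processing choices given at the end moved some medians outside their interval. Of the 14917 genes, 14901 had a window, and the window with the most H3K27me3 in WT cells was used for each. A choice by the WT column favours a fall of this mark in the other lines.

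Promoters of genes that were higher had less H3K27me3 than in WT cells, and those of genes that were lower had nearly as much as in WT cells. The median change in H3K27me3 was -0.69 (-0.76 to -0.62) at 390 higher genes, -0.10 (-0.13 to -0.06) at 1107 lower genes (0.01 when centred on promoters without the mark) and -0.36 at 13404 genes not called. At genes higher by at least 2-fold it was -0.77, and at genes lower by at least 2-fold it was 0.00 (-0.04 to 0.05). The 2-fold lower genes also had more of the mark to begin with, with a WT median of 6.96 RPM against 1.98 RPM at genes not called. Among genes with at least 6 RPM of H3K27me3 in WT cells, the mark was at least 2-fold lower at 57 of 113 higher genes (50.4%), 8 of 420 lower genes (1.90%) and 172 of 2266 genes not called (7.59%). The median change in H3K4me3 was 0.31 at higher, -0.04 at lower and 0.03 at uncalled genes, and that in H3K27ac 0.42, 0.04 and 0.27. The input columns changed alike, by 0.05, 0.05 and 0.06.

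The genes named here were chosen after the marks were seen. TDGF1 had 11.2 RPM of H3K27me3 in WT, 1.86 in Null and 1.26 in Null+EZH2 cells, and its H3K27ac was at 2.67 RPM in WT and 7.11 RPM in Null+EZH2 cells. NODAL had 20.7, 1.04 and 4.08 RPM of H3K27me3 in the same order. FAM20A, a pseudokinase of enamel formation whose RNA was at 10.3, 7.05 and 9.2 RPM in WT and 51.7, 34.5 and 27.2 RPM in restored libraries (change 2.05 ± 0.25, adjusted p = 0.000572), had 13.8, 1.69 and 1.51 RPM. ETV4 had 11.4, 0.614 and 1.8 RPM and PMAIP1 8.17, 1.02 and 1.41 RPM. At these 5 promoters the restored column was nearer to the Null than to the WT column. The EZH2 ChIP column of WT cells had 0.418 to 1.32 RPM at these 5 promoters, against 7.3 RPM at SOX1 and 7.62 RPM at PAX6. The number of libraries behind this column is not known here. In Het cells the mark was already lower at TDGF1, at 2.07 RPM, and at PMAIP1, at 3.3 RPM. PRAC1 had 52.8 RPM in WT, 55.6 in Het, 0.918 in Null and 18.3 in restored cells, a partial return.

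Neural genes whose RNA was lower had H3K27me3 near the WT level. SOX1 had 28.1 RPM in WT, 2.77 in Null and 26.1 in restored cells, PAX6 50.6, 2.5 and 43.4 RPM, POU3F2 26.7, 2.65 and 28.9 RPM, NR2F1 35.6, 3.88 and 34.3 RPM and NTRK2 26.9, 1.28 and 23.7 RPM. At these 5 promoters the mark was low in Null cells and high in restored cells, and the RNA was lower than in WT in both. Elsewhere the mark was above WT. EFNA2, an ephrin ligand, had 9.26 RPM in WT and 25.7 RPM in restored cells, and its RNA was at 5.79, 3.47 and 3.67 RPM in WT and 0.771, 0.858 and 0.52 RPM in restored libraries (change -2.42 ± 0.35, adjusted p = 0.0016). MN1, a transcriptional coactivator, had 6.92 and 20 RPM of the mark, and its RNA was at 60.4, 37.5 and 35.8 RPM and then at 10.2, 8.66 and 13.5 RPM (change -2.02 ± 0.26, adjusted p = 0.000835). LRRC4B had 6.57 and 17.4 RPM and ZNF521, a zinc finger factor of neural commitment, 2.66 and 7.13 RPM, with RNA changes of -1.58 and -2.84. CDKN2A had 38 RPM in WT, 1.66 in Null and 31.9 in restored cells, although its RNA was above WT.

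Among the genes that went off, the promoters of GALNT3 and ZFP30 behaved otherwise. GALNT3 had 14.1 RPM of H3K4me3, the mark of active and poised start sites, in WT, 6.95 in Het, 1.42 in Null and 1.74 RPM in restored cells, and its H3K27me3 was at 9.85 RPM in WT and 1.82 RPM in restored cells. ZFP30 had 13.1 RPM of H3K4me3 in WT, 14.1 in Het, 4.08 in Null and 1.31 in restored cells, with H3K27me3 at 6.48 RPM in WT and 2.86 RPM in restored cells. At these start sites, with 1 read of RNA over the 3 restored libraries, both marks were lower than in WT cells. CLEC10A had little H3K4me3 to begin with, at 1.92 RPM in WT and 0.69 RPM in restored cells. Its H3K27me3 was at 3.07 and 1.76 RPM. The marks of CHP2 are not given here.

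**Figure D3:**
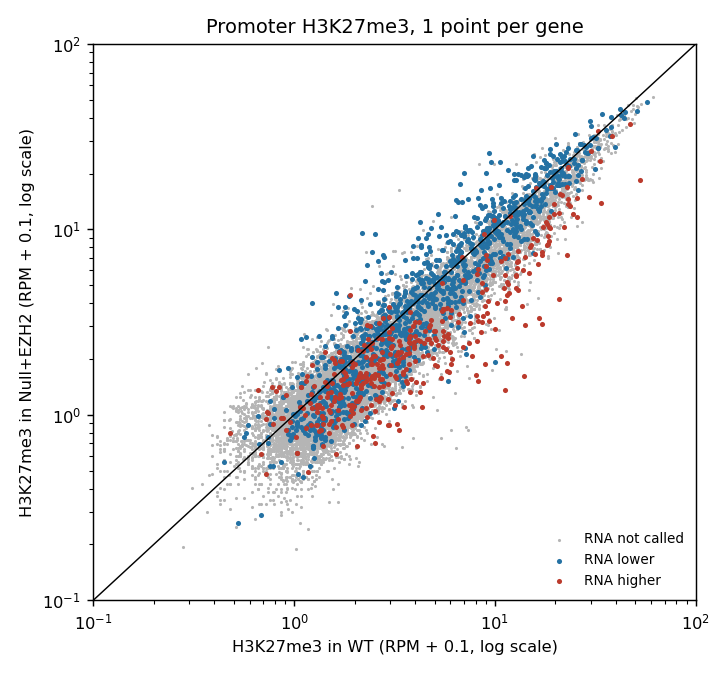
H3K27me3 in the start-site window (RPM + 0.1, log scales) of WT (horizontal) and Null+EZH2 cells (vertical), with 1 point per gene, coloured by the RNA call. Higher genes (red) lie mostly below the diagonal, with a median change of -0.69, and lower genes (blue) lie along it, with a median of -0.10.

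One stretch of chromosome 21 stood out by position. From 14 to 25 Mb, limits chosen after the values were seen, 8 genes were tested and 6 were called lower. CXADR, the coxsackievirus and adenovirus receptor, was at 79.2, 62 and 62.8 RPM in WT and 11.6, 14.7 and 27.3 RPM in restored libraries (change -2.01 ± 0.30, adjusted p = 0.00185). NRIP1, a nuclear receptor corepressor, was at 25.7, 26.8 and 13.1 RPM and then at 2.98, 3.97 and 4.92 RPM (change -2.40 ± 0.62, adjusted p = 0.0282). AP001347.6 (-3.23), USP25 (-2.03), BTG3 (-1.84) and HSPA13 (-1.46) were lower too. C21orf91 (-2.02) had an adjusted p of 0.0509 (0.0265 with the block), and CHODL (-0.01, adjusted p = 0.996) did not follow. The calls of AP001347.6 and CXADR held whichever library was left out. Those of NRIP1, USP25, BTG3 and HSPA13 did not, with adjusted p up to 0.106, 0.132, 0.131 and 0.103 (without WT library 2, Null+EZH2 library 1, Null+EZH2 library 2 and WT library 2), and USP25 and BTG3 were not called after scaling.

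The chromatin columns changed over the same stretch, at start sites with and without a tested gene. Over 158 windows, the median H3K27ac was 1.35 RPM in WT, 1.36 in Het, 0.189 in Null and 0.409 in restored cells, and restored cells were below WT in 158 of 158 windows. H3K4me1 was at 1.21 RPM in WT, 1.09 in Het, 0.142 in Null and 0.296 in restored cells, again lower in 158 of 158. H3K27me3 was higher instead, at 0.860 RPM in WT, 0.709 in Het, 2.92 in Null and 1.54 in restored cells, and it was above WT in 145 of 158 windows. Null cells lack EZH2, and they had the highest value. The paper reports that H3K27me3 fell to background in Null cells. RPM are shares of a library, so a higher RPM in a column with little signal need not mean more of the mark. What the value in Null cells reflects was not tested. H3K4me3 was at 1.43 RPM in WT, 0.763 in Het, 0.908 in Null and 0.887 in restored cells, lower than WT in 156 of 158 windows of restored cells. Het cells were thus lower in this mark too, and the WT column has the higher background given above. The input column was lower as well, at 1.76 RPM in WT and 1.42 RPM in restored cells (change -0.32, against 0.04 over all windows), a smaller change than those of H3K27ac (-1.54) and H3K4me1 (-1.56). Its part in the result was not tested. The autosomes gave 555 bins of 5 Mb that held 20 windows or more. Over them the median change in H3K27ac was 0.13 (quartiles 0.04 and 0.20), and the 4 lowest were chromosome 21 from 15 to 20 Mb (-1.62), from 20 to 25 Mb (-1.51), chromosome 4 from 30 to 35 Mb (-1.31) and chromosome 21 from 10 to 15 Mb (-1.06). The bin on chromosome 4 had 1 gene tested, which was not called lower.

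**Figure D4:**
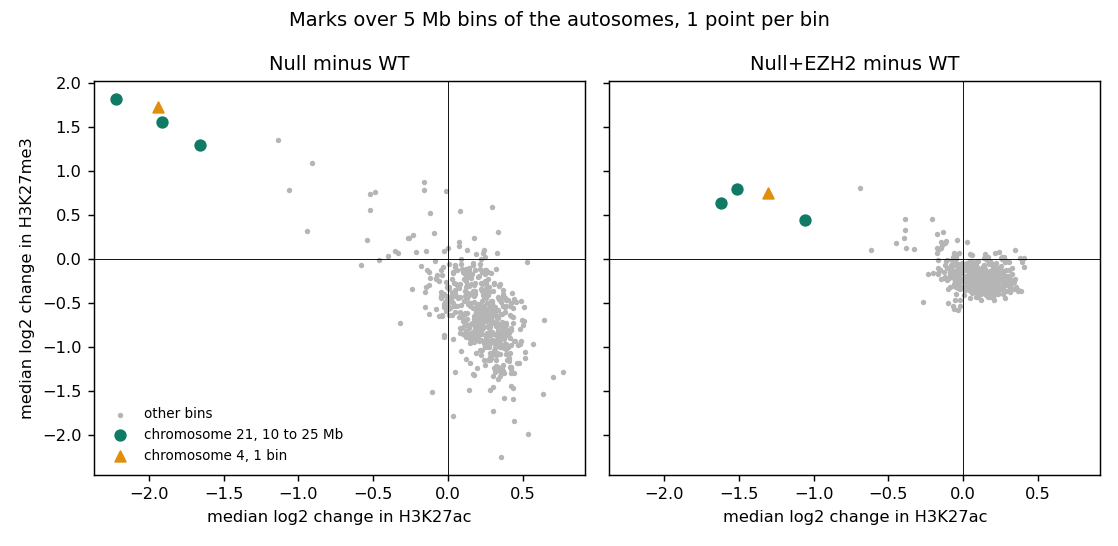
Median log2 change in H3K27ac (horizontal) and H3K27me3 (vertical) over start-site windows in 555 autosomal bins of 5 Mb, for Null (left) and Null+EZH2 (right) against WT, with 1 point per bin. The 3 bins of chromosome 21 from 10 to 25 Mb (green) and 1 bin of chromosome 4 (orange triangle) have the lowest H3K27ac in both panels. Their H3K27me3 is above WT in RPM, which are shares of a library.

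Smaller shifts followed chromosome segments. From 40 Mb to the end of chromosome 17, 532 genes had a median change of -0.25 relative to all genes, and 77 of them (14.5%, against 7.43% of all genes) were lower and 3 higher (46 and 4 after scaling). The segment's median lay between -0.07 and 0.12 in WT and between -0.26 and -0.20 in restored libraries. The input columns of the same segment differed from WT by -0.14 in restored, -0.15 in Null and -0.05 in Het cells. From 80 Mb to the end of chromosome 15, 115 genes had a median of 0.22 relative to all genes. Per library it was 0.10, 0.06 and -0.22 in WT and 0.24, 0.20 and 0.34 in restored libraries, so WT library 3 lay apart. The input columns differed by 0.18 in restored, 0.18 in Null and 0.20 in Het cells. Among 247 bins of 10 Mb, the lowest was chromosome 17 from 50 to 60 Mb (-0.35) and the highest was chromosome 15 from 90 to 100 Mb (0.26). A difference in copy number of these segments and one in expression per copy cannot be told apart with these data. EZH1, CBX2, CBX8 and PRAC1 are among the named genes that lie in the segment of chromosome 17. This list is not complete, and positions are not given for most other named genes, such as the WNT receptors.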

How the data were processed

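RNA-seq libraries were made from 500 ng of total RNA with a kit that does not mark strand and read as 100 bp single ends. The authors trimmed reads (Trim Galore 0.4.0), aligned them to GRCh38 with TopHat2 2.0.12, counted them per gene without strand in SeqMonk and deposited log2 RPM, with a gene without reads entered as 0.9 of 1 read. Of values below 1000 reads, 100% were whole multiples (within 0.01) of 1 read, so reads were recovered. For ChIP-seq the authors aligned with Bowtie2 2.2.5 and deposited log2 RPM per start-site window, 1 column per line and mark. Every deposited column was matched to its samples by name.

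Values were returned to RPM, and log2(RPM + 0.1) of all 12 libraries was fitted with limma 3.58.1 (R 4.3.3, eBayes with trend) for 20608 genes whose mean reached 0.1 RPM. Calls used a Benjamini-Hochberg adjusted p under 0.05. RPM were used without a further scaling factor in the main fit. The libraries carry the same numbers in every line. Deviations from the line means of same-numbered libraries correlated in every pair (0.549, 0.165 and 0.524 between WT and Null+EZH2, and at least 0.126 over all lines). Some pairs with different numbers correlated too, with 0.269 between WT library 1 and Null+EZH2 library 2, above the 0.165 of the libraries numbered 2. A pairing by number is therefore uncertain and comes from the data rather than from a stated batch. The main fit did not use it. A fit with the number as a block is given for some results where it changes a call. It changed other list counts as well. With the block, PRC1 had 1 higher and 6 lower genes, and cholesterol synthesis 0 and 5. Glycolysis and hypoxia had 2 and 6, fibroblast and mesenchyme 4 and 4, p53 targets 6 and 2, and the ATF4 list 8 and 0. Alternatives were other scalings, pseudocounts and filters, thinning of reads, the 6 libraries alone, limma-voom on recovered reads and each library left out. The fits were also run on simulated reads, with the same spread set for all genes and no link between same-numbered libraries. The real libraries were not so simple, so this cannot vouch for the calls given here. edgeR and DESeq2 were planned and not run, and limma-voom on the recovered reads was added. The gene lists (31 lists, 828 genes) and the comparison were chosen with earlier results of these data known. Genes named are PRC2 core genes, the 12 largest rises and falls without overlap between libraries, and up to 4 called members of each list with the largest change or, with none called, the highest member. Other genes named were chosen after their values were seen: other called list members, ESC markers, genes by promoter marks, genes on or off, and genes by position. Where a name was listed more than once, the row with the highest mean was used. RefSeq promoters matched 72.7% of the genes by symbol, fewer than the 80% needed, so promoter base composition was not compared between classes of genes. Some items are not reported here.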

Additional observations from a re-analysis of the deposited data

How the results depend on the processing

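The counts of higher and lower genes depended on the processing. They were 604 and 659 with TMM scaling, 647 and 639 with median-ratio scaling, 808 and 2736 with the replicate block, 890 and 2799 with the block in the 6 libraries alone, and 1574 higher genes with median-ratio scaling and the block. limma-voom on recovered reads called 555 lower genes. Leaving out 1 library gave 184 to 424 higher and 431 to 999 lower genes. voom and the last 2 fits with a block were chosen after seeing the data. Without any adjustment 935 genes were higher and 2841 lower at p under 0.05.

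Relative to all genes, the median of the primed pluripotency list ranged from 0.69 to 0.93 over the fits that leave out 1 library, that of the neuroectoderm list from -1.59 to -0.88, and that of the WNT list from -0.78 to -0.40. The neuronal list had -0.64 with a pseudocount of 1. The median change in H3K27me3 at higher genes was -0.50 with a pseudocount of 1, -0.49 at the first listed start site and -0.57 when centred on promoters without the mark, and that at lower genes was 0.015 when so centred. The causes were not tested.

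Of 118 genes named or drawn from the rules, 109 were called and 57 kept their call without each single library. No change turned its direction under these settings at a called gene. The replicate block added calls for EED, TOP2A and C21orf91 and changed no other call among them. edgeR and DESeq2 were not run. The shallowest library, Null+EZH2 library 3, had 16587860 reads on genes, and the ChIP-seq columns are averages of libraries, so their spread is not known here.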
